A study of Mus musculus with 21 samples.

Results

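Peroxisomal beta-oxidation genes were followed in livers of mice that ate a high-fat diet with or without quercetin, a plant flavonoid. The 9 genes (Abcd3, Crot, Ehhadh, Hsd17b4, Acaa1a, Acaa1b, Scp2, Decr2 and Pex11a) were listed by name and are read by 10 probes on 19 spots of the array, out of 55681 probes on 59305 non-control spots. RNA came from livers of adult male C57BL/6J mice, an inbred strain. Mice first had a normal-fat diet for 3 weeks. The HF-Q group (10 livers) then ate the high-fat diet with 0.33% (w/w) quercetin for 12 weeks, and the HF group (11 livers) ate it without quercetin for the same time. Food was withheld for 2 to 4 hours before the livers were collected. No group on a normal-fat diet was among the 21 arrays, so the values bear on quercetin added to a high-fat diet and not on the diet itself. Each liver is 1 mouse on 1 array, labelled with Cy5 against a Cy3-labelled pool of all the samples, and every level below is a log2 ratio of that liver to the pool. The study held 24 mice, and 3 arrays were excluded by the authors for uneven hybridisation, per the labels.

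Peroxisomes shorten fatty acids that mitochondria handle poorly, such as very long-chain, branched-chain and dicarboxylic acids and the side chains of bile acid precursors. Acyl-CoAs enter through ABC transporters, are oxidised with release of hydrogen peroxide, pass through a bifunctional enzyme that hydrates and dehydrogenates them, and are cleaved by a thiolase. The shortened products leave as carnitine esters for mitochondria. In rodent liver many of these genes are known targets of PPARα, a nuclear receptor that is activated by fatty acids and fibrates and binds direct repeats of the half-site AGGTCA with 1 base between them.

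The promoters of 5 of the genes in the pairs that moved together between livers, as described further on, are shown first, since they are the part of those genes that a reader would set side by side. They are the 250 bases before the gene start in RefSeq (GRCm38.p6), written 5′ to 3′. The promoter table held 9 promoters for 8 of the 9 genes, with 2 for Abcd3. It held none for Hsd17b4, so in its pairs with Scp2 and Abcd3 only the partner's promoter is described. Capitals mark the motifs AGGTCA (a nuclear receptor half-site), GGGCGG (a GC box) and CCAAT on either strand, which do not overlap in these windows.
Acaa1b (chr9:119157094-119157343, minus strand): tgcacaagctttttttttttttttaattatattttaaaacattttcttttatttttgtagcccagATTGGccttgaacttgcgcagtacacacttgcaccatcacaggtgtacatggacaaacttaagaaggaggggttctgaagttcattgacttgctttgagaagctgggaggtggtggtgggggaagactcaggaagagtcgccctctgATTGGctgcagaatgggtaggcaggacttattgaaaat
Pex11a (chr7:79743132-79743381, minus strand): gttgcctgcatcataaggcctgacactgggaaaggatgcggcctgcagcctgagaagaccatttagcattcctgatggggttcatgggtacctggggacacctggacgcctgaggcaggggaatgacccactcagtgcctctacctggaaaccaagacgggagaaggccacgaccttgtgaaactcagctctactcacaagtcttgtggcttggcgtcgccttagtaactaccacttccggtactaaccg
Crot (chr5:8997147-8997396, minus strand): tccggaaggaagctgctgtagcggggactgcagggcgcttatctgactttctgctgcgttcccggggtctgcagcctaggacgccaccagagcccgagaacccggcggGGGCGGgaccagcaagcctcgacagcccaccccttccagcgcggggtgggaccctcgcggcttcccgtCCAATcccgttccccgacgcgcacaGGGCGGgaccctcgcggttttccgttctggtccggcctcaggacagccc
Ehhadh (chr16:21787835-21788084, minus strand): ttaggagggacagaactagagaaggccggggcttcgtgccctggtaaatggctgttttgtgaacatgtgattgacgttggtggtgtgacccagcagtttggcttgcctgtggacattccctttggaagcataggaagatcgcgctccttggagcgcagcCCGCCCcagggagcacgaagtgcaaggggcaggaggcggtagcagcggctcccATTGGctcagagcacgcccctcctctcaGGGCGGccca
Scp2 (chr4:108118548-108118797, minus strand): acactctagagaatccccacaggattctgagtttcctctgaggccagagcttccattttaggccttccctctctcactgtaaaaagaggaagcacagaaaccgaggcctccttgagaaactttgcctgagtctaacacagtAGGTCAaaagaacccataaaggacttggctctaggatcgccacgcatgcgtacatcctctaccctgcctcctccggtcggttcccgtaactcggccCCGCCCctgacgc
Crot and Ehhadh each held 2 GC boxes and 1 CCAAT box. Acaa1b held 2 CCAAT boxes and no GC box, and Pex11a held none of the motifs marked. Scp2 held 1 AGGTCA half-site, 109 bases before the gene start, and 1 GC box, and was the only gene of the 8 with that half-site. The 2 promoters of Abcd3, which also belongs to a pair, held none of the 3 motifs and are not printed. Acaa1a and Decr2 belong to none of those pairs. Acaa1a held 3 GC boxes and 3 CCAAT boxes, and Decr2 held 2 GC boxes and no CCAAT box. Whether shared motifs go with co-variation was not tested. Among all 32851 promoters of the same length, 32.7% held GGGCGG, 33.8% held CCAAT and 14% held AGGTCA. The full direct repeat AGGTCANAGGTCA was in 0.0335% of all promoters and in none of those 9 promoters, where the closest match on either strand differed at 4 or 5 of its letters. A match at 4 or fewer differences was found in 74.5% of all promoters and one at 5 or fewer in 99.6%, so these windows did not stand apart by that measure. A match describes letters and not a binding site, and no match says only that the letters are not in this window.

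The probes of the thiolase genes Acaa1a and Acaa1b and both probes of Scp2 are given by their first 30 of 60 bases. They are written as the array files list them, with the position of the whole probe on build NCBI37 (mm9).
Acaa1a (chr9:119259353-119259412, plus strand): ccctggttgcaaagccatttgtacctttga
Acaa1b (chr9:119057326-119057385, minus strand): tctgcgtgggacactcagcagtggaggagt
Scp2, brighter probe (chr4:107717189-107717248, minus strand): tagatttgttgctaattgggtgtggtcaat
Scp2, second probe (chr4:107716922-107716981, minus strand): ttggggggactagagaagaaacagatttcc
Acaa1a and Acaa1b are neighbouring thiolase genes, and their probes shared at most 22 of 60 bases without gaps and no run longer than 6 bases. Whether either probe also binds the other transcript was not tested. Both Scp2 probes carry the same transcript accession in the array files and lie close together on chromosome 4. The remaining probes lie on chromosome 3 from 121461892 to 121461951 (Abcd3), chromosome 5 from 8966430 to 8966489 (Crot), chromosome 7 from 86882223 to 86882282 (Pex11a), chromosome 16 from 21761914 to 21761973 (Ehhadh) and chromosome 17 from 26218760 to 26218819 (Decr2), also on NCBI37, and that of Hsd17b4 is given with its values. Which exon or UTR each probe reads was not analysed here.

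All 10 probes were bright. Their signal ranked between the percentiles 91.6 (Ehhadh) and 99.7 (Scp2) of the 26291 probes kept for testing, and none was saturated on any array. The median Cy5 signal over arrays was 15430 for Ehhadh, with a local background of 30 to 39, and 242532 for the brighter Scp2 probe, with a background of 33 to 40. Levels of different probes are not compared, because each probe binds with its own strength. The Abcd3 spot on the array of HF replicate 11 had a Cy5 signal of 78 and was not well above background, and its ratio there is not a measured level. The brighter Scp2 probe had no usable spot in HF-Q replicate 6, and the second Scp2 probe had none in 4 livers (HF-Q replicates 9 and 10, HF replicates 5 and 11).

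Between 44.2% and 51.3% of all probes were well above background per array. Arrays sat on 3 slides that each held both groups, with 4 HF-Q and 3 HF arrays on slide 1, 2 HF-Q and 4 HF arrays on slide 2, and 4 of each group on slide 3. Markers of hepatocytes were measured in every liver, with 7 of 8 listed markers on the array by name, and their mean log2 ratio was -0.04 to 0.44 in HF-Q livers and 0.04 to 0.46 in HF livers. Of other cell types, Kupffer cell markers (7 of 7 measured) averaged -0.63 to -0.03 in HF-Q and -0.57 to 0.70 in HF. Among them Marco varied widely, at -0.99 ± 0.68 in HF-Q and -0.30 ± 1.2 in HF. By group means 3 of the 7 were higher and 4 lower in HF-Q. Endothelial markers (5 of 5) averaged -0.09 to 0.09 in HF-Q and -0.10 to 0.15 in HF. Stellate cell markers (6 of 6) averaged -0.16 to 0.12 in HF-Q and -0.21 to 0.20 in HF, bile duct markers (3 of 5) -0.23 to 0.13 in HF-Q and -0.19 to 0.35 in HF, and lymphocyte markers (6 of 6) -0.13 to 0.08 in HF-Q and -0.29 to 0.25 in HF. Erythroid markers (3 of 4) averaged -0.43 to 0.17 in HF-Q and -0.33 to 0.30 in HF. Adipocyte markers (2 of 5 measured) averaged -0.89 to 0.65 in HF-Q and -1.04 to 0.73 in HF. Of these, Cfd stood at -0.30 ± 0.86 in HF-Q and -0.22 ± 1.2 in HF and Lep at 0.06 ± 0.04 in HF-Q and 0.08 ± 0.06 in HF, while Adipoq, Plin1 and Retn were well above background on at most 1 array. Skeletal muscle markers were not measured (0 of 4). Pancreatic acinar markers (5 of 8 measured) averaged -0.86 to -0.15 in HF-Q and -0.95 to 2.19 in HF, and stood high in HF replicates 5 (1.62) and 11 (2.19).

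Whether quercetin changed the expression of these genes was the first comparison. None of the 10 probes passed the test at an adjusted p of 0.05 (limma's moderated test, two-sided, Benjamini-Hochberg over all 26291 kept probes), and the lowest adjusted p among them was 0.867. The background was the same, since 0% of all kept probes passed and the lowest adjusted p of any probe was 0.505. At an unadjusted p under 0.05, 1 of the 9 genes (Scp2) was lower and 0 were higher in HF-Q, against 5.65% of all kept probes in either direction (2.75% lower, 2.9% higher). The mean log2 ratio was lower in HF-Q for 8 of the 9 genes (5 of 9 with arrays centred on their medians, where 35.3% of all kept probes were lower), with a median difference of -0.07, while 53% of all measured genes (52.4% of kept probes) were lower, with a median of -0.0043. Every gene's groups overlapped, and no overlap was seen for 0.0038% of all kept probes. In whole liver RNA, fewer cells of a type and less RNA per cell cannot be told apart.

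**Figure D1:**
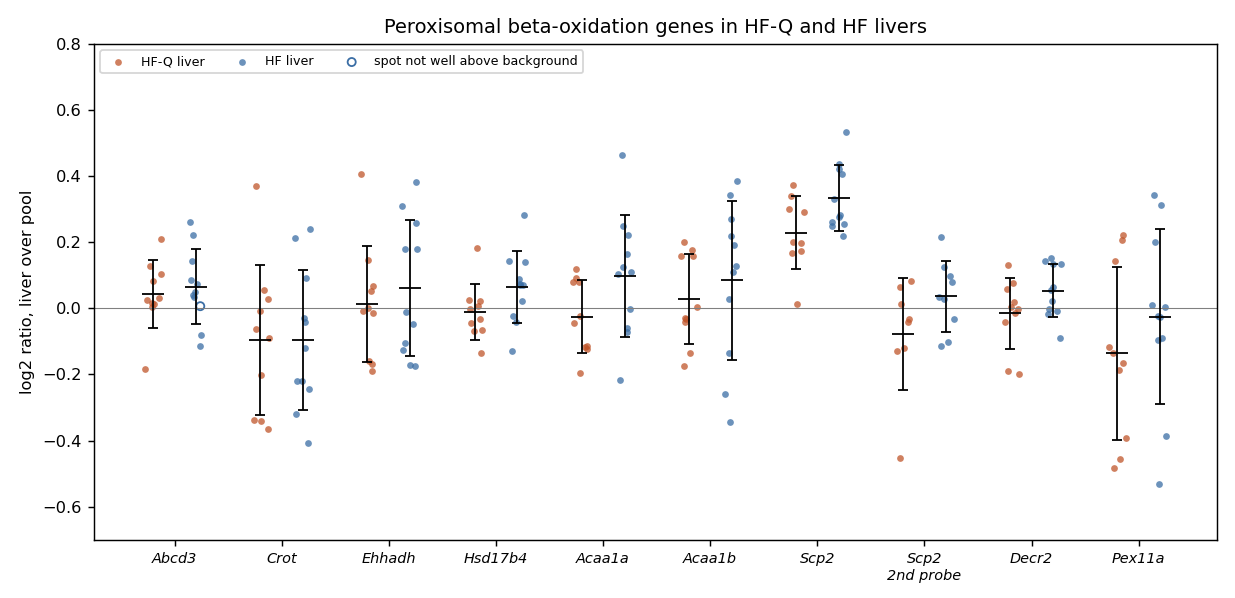
Log2 ratio of each liver to the pool (vertical axis) for the 10 probes, with HF-Q livers left and HF livers right of each gene name. Points are livers, bars are mean ± SD, and the open point is the Abcd3 spot with a Cy5 signal of 78. The groups overlap for every probe, and the largest differences between group means are those of Acaa1a (-0.12), the second Scp2 probe (-0.11) and Pex11a (-0.11).

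Transport into and out of the peroxisome is represented by Abcd3 and Crot. Abcd3 encodes a membrane transporter (PMP70) that brings branched-chain and dicarboxylic acyl-CoAs into the peroxisome. Its log2 ratio was lowest at -0.18, had a median of 0.03 and was highest at 0.21 in HF-Q livers, against -0.11, 0.05 and 0.26 in HF livers. The lowest HF-Q value belonged to replicate 10 and lay apart from the other 9 livers, which all stood at or above 0.00. The group means were 0.04 ± 0.10 in HF-Q (SD, n = 10) and 0.07 ± 0.11 in HF (n = 11), a difference of -0.02 ± 0.05 (SE) with a 95% interval from -0.12 to 0.08 (limma, adjusted p = 0.999). Leaving out the dark spot gave -0.03.

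Crot encodes carnitine O-octanoyltransferase, which turns chain-shortened acyl-CoAs into carnitine esters that can leave for mitochondria. In HF-Q livers its ratio ran from -0.37 over a median of -0.08 to 0.37, and in HF livers from -0.41 over -0.12 to 0.24. HF-Q replicate 7 was the highest of all 21 livers, while 3 other HF-Q livers stood below -0.33. Means were -0.10 ± 0.23 in HF-Q and -0.10 ± 0.21 in HF, and the difference was 4.91e-06 ± 0.09 (SE, 95% interval -0.18 to 0.18). Crot was among the more variable genes, with a residual SD of 0.22 at percentile 91 of all kept probes, and its group means coincided to 2 decimals.

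Ehhadh and Hsd17b4 encode the bifunctional enzymes that carry out the hydration and dehydrogenation steps, the first mainly for straight-chain and dicarboxylic acids and the second for branched-chain acids, very long chains and bile acid precursors. Ehhadh ranged from -0.19 over a median of 0.00 to 0.41 in HF-Q livers, and from -0.18 over -0.01 to 0.38 in HF livers. The highest HF-Q liver was again replicate 7, and both groups spread over nearly the same interval. Its difference was -0.05 ± 0.08 (SE, 95% interval -0.21 to 0.12, limma, adjusted p = 0.999), from means of 0.01 ± 0.18 in HF-Q and 0.06 ± 0.21 in HF.

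Hsd17b4, read by a probe at bases 50355686 to 50355745 of chromosome 18 (NCBI37), varied much less, with a residual SD of 0.0977 at percentile 20.7. Its ratio was -0.13 at the lowest, -0.02 at the median and 0.18 at the highest in HF-Q, against -0.13, 0.07 and 0.28 in HF. Replicate 5 stood above all other HF-Q livers, and replicate 7 was the highest HF liver. The means were -0.01 ± 0.08 in HF-Q and 0.06 ± 0.11 in HF, a difference of -0.07 ± 0.04 (SE, 95% interval -0.17 to 0.02, limma, adjusted p = 0.934).

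Acaa1a, Acaa1b and Scp2 stand for the thiolase step, the cleavage that releases acetyl-CoA or propionyl-CoA. Acaa1a encodes thiolase A, and its ratio ran from -0.20 over -0.03 to 0.12 in HF-Q livers and from -0.22 over 0.11 to 0.46 in HF livers. The low ends of the groups coincided, and 5 of the 11 HF livers stood above the highest HF-Q liver. With means of -0.02 ± 0.11 in HF-Q and 0.10 ± 0.18 in HF, the difference was -0.12 ± 0.06 (SE, 95% interval -0.26 to 0.01, limma, p = 0.068, adjusted p = 0.897). In linear terms the HF-Q level was 0.918 of the HF level.

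Acaa1b encodes thiolase B, the form known for its strong induction by fibrates in rodents. Its ratio was -0.17, -0.01 and 0.20 at the lowest, median and highest HF-Q liver, against -0.34, 0.13 and 0.39 in HF. The HF livers enclosed the whole HF-Q range at both ends. The difference was -0.06 ± 0.08 (SE, 95% interval -0.22 to 0.11, limma, adjusted p = 0.995), with means of 0.03 ± 0.14 in HF-Q and 0.09 ± 0.24 in HF.

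Scp2 encodes sterol carrier protein 2, a lipid carrier, and from the same gene a longer peroxisomal thiolase for branched-chain substrates. By the brighter probe its ratio ran from 0.01 over 0.20 to 0.37 in 9 HF-Q livers and from 0.22 over 0.28 to 0.53 in 11 HF livers. All 20 values were above 0 although the pool held these livers, so the ratio is read here between livers and not as a level above the pool. The difference was -0.10 ± 0.05 (SE, 95% interval -0.21 to 0.00, limma, p = 0.0417, adjusted p = 0.867), with means of 0.23 ± 0.11 in HF-Q and 0.33 ± 0.10 in HF.

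The second Scp2 probe gave a like difference of -0.11 ± 0.07 (SE, 95% interval -0.25 to 0.02, limma, p = 0.0991, adjusted p = 0.919). Its values ran from -0.45 over -0.04 to 0.08 in 8 HF-Q livers and from -0.11 over 0.03 to 0.21 in 9 HF livers. HF-Q replicate 7 was the lowest liver for both Scp2 probes. Over the 16 livers with both values the probes correlated at r = 0.888 (Spearman rho 0.806, permutation p = 4e-05 and 0.00039), and at 0.715 without HF-Q replicate 7 and HF replicate 3, the livers farthest from the median.

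Decr2 encodes the peroxisomal dienoyl-CoA reductase, which prepares unsaturated fatty acids for the pathway. Its ratio was -0.20, 0.00 and 0.13 at the lowest, median and highest HF-Q liver, against -0.09, 0.05 and 0.15 in HF. Decr2 was the least variable gene of the 9 (residual SD 0.0936, percentile 17.5), and HF-Q replicates 7 and 9 were its lowest livers. The means were -0.02 ± 0.11 in HF-Q and 0.05 ± 0.08 in HF, a difference of -0.07 ± 0.04 (SE, 95% interval -0.16 to 0.02, limma, adjusted p = 0.943). Decr2 was also the only gene of the 9 whose ratio passed in r, though not in rho, with a measure of array signal. Its ratio correlated with the percentage of probes well above background on the array at r = 0.605 over 21 livers (rho 0.583, permutation p = 0.00419 and 0.00636, adjusted over the 9 genes 0.0377 and 0.0572), with r = 0.606, 0.36 and 0.662 within slides 1, 2 and 3 and 0.438 without the livers farthest from the median. The other 8 genes had adjusted p of 0.181 or more for r and of 0.0919 or more for rho. The nearest was Abcd3, dark spot included, with r = 0.452 and rho 0.506 (permutation p = 0.0401 and 0.0204, unadjusted). Its r was 0.415, -0.227 and 0.73 within slides 1, 2 and 3, where slide 1 holds the dark spot. The part of this measure in the group values was not tested.

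Pex11a encodes a peroxin of the peroxisomal membrane that takes part in elongation and division of peroxisomes and is known to respond to PPARα in rodents. It is read by 10 spots of 1 probe, which were averaged. Pex11a was the most variable of the genes, with a residual SD of 0.263 at percentile 94.5. Its ratio ran from -0.48 over -0.15 to 0.22 in HF-Q livers and from -0.53 over -0.02 to 0.34 in HF livers. In each group some livers stood far below the rest, 3 of 10 in HF-Q and 2 of 11 in HF being at -0.39 or below. The difference was -0.11 ± 0.11 (SE, 95% interval -0.33 to 0.11, limma, adjusted p = 0.986), with means of -0.14 ± 0.26 in HF-Q and -0.03 ± 0.26 in HF.

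The size of a difference that these arrays leave possible follows from the intervals. The lowest bound of any gene was -0.33 (Pex11a) and the highest was 0.18 (Crot), so a change of 1 log2 unit in either direction lay outside all 10 intervals. Narrow intervals of Hsd17b4, Decr2 and Abcd3 went with their small spread between livers.

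The differences varied between slides. The median difference of the 9 genes was -0.12 on slide 1, where 9 of 9 were lower in HF-Q, -0.09 on slide 3 (6 of 9 lower) and 0.05 on slide 2 (3 of 9 lower), which held only 2 HF-Q livers. On slide 2 the brighter Scp2 probe averaged 0.34 in HF-Q and 0.25 in HF, while it averaged 0.18 in HF-Q and 0.40 in HF on slide 1. Ehhadh was lower in HF-Q on slide 1 (-0.06 in HF-Q, 0.13 in HF) and on slide 2 (-0.01 in HF-Q, 0.14 in HF), and higher on slide 3 (0.10 in HF-Q, -0.07 in HF). Acaa1a and Decr2 were lower in HF-Q on all 3 slides. With slide as a block the median difference over all livers was -0.07 with 8 of 9 genes lower.

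**Figure D2:**
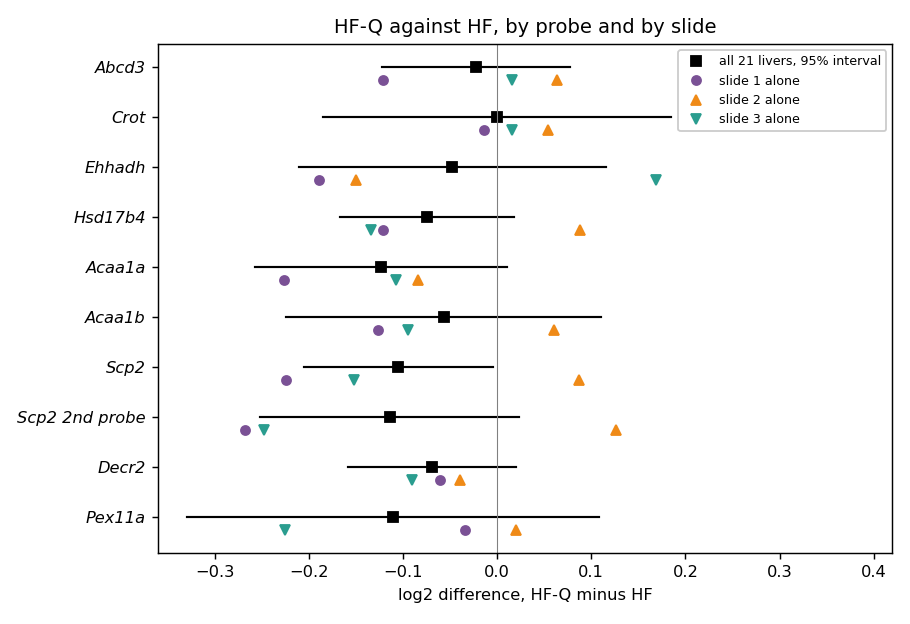
Difference in log2 ratio, HF-Q minus HF (horizontal axis), for each probe. Squares with lines are the value over all 21 livers with its 95% interval, and coloured marks are the differences within each slide. The interval reaches past 0 for every probe but the brighter Scp2 probe, and slide 2 lies to the right for most genes.

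The size of the differences, and the count of genes lower, depended on how dye and intensity were balanced. These genes are bright, and centring each array on its median, in place of loess along the intensity scale, moved the median of all kept probes to 0.02 and that of the brightest 10% (2630 probes) to 0.06. Under that centring 21.7% of these bright probes were lower in HF-Q, against 53.5% under loess. The 9 genes then had a median of -0.01, with 5 of 9 lower, against 0.06 for the brightest 10%. Under loess their median was -0.07, against -0.01 for the brightest 10%.

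Taken as 1 mean per liver, the 9 genes stood at -0.06 to 0.14 in the 9 HF-Q livers with a value for every gene, and at -0.07 to 0.27 in the HF livers other than replicate 11, whose mean of -0.09 includes the dark Abcd3 spot. HF-Q replicate 6, which had no Scp2 value, averaged -0.07 over the other genes. HF-Q replicate 5 was the highest HF-Q liver at 0.14, and HF replicates 5 (0.27), 7 (0.22) and 6 (0.18) stood above it. The livers with high acinar markers lay at both ends of the HF group, at 0.27 (replicate 5) and -0.09 (replicate 11). Without HF replicate 5 the median difference of the genes was -0.07 with 8 of 9 lower, and without HF replicate 11 it was -0.08 with 9 of 9 lower.

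The other genes of the pathway were summarised by lists, with the brightest probe for each gene. None of the genes in these lists passed at an adjusted p of 0.05, as 0% of all genes did, and 5.85% of all genes had an unadjusted p under 0.05. With arrays centred on their medians, the setting of the counts in brackets, 35.3% of all kept probes were lower in HF-Q. The counts outside the brackets are under loess, where 53% of all genes were lower in HF-Q. Of 25 other genes of peroxisomal lipid oxidation, 22 were lower (12 with arrays centred on their medians) and 3 higher in HF-Q, with a median difference of -0.04. Nudt19 and Pecr differed by -0.09 ± 0.05 and -0.08 ± 0.04, and Hacl1, the lyase of alpha-oxidation, by 0.16 ± 0.10 in the other direction.

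Of 18 genes of peroxisome biogenesis and division, 14 were lower (10 with arrays centred on their medians) and 4 higher, with a median of -0.04. Fis1, a fission factor shared with mitochondria, differed by -0.07 ± 0.03 (limma, p = 0.0382, adjusted p = 0.861) and Pex11g, a relative of Pex11a, by -0.13 ± 0.06 (p = 0.0483, adjusted p = 0.881). Pex13 and Pex3 differed by -0.07 ± 0.04 and -0.06 ± 0.04. Of 18 measured genes for other matrix and membrane proteins, 15 were lower (7 with arrays centred on their medians) and 3 higher, with a median of -0.04. Hao2, a peroxisomal hydroxyacid oxidase, had the largest difference in this list, at -0.20 ± 0.26 in HF-Q and 0.17 ± 0.32 in HF (-0.37 ± 0.12, limma, p = 0.00407, adjusted p = 0.812), and its probe was well above background on 13 of 21 arrays. Ephx2, the soluble epoxide hydrolase, differed by -0.10 ± 0.05, Pxmp2 by -0.13 ± 0.07 and Lonp2 by -0.09 ± 0.05.

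Mitochondrial beta-oxidation, which receives the shortened chains, had 18 of 18 measured genes lower in HF-Q (10 with arrays centred on their medians), with a median of -0.06. Of these genes, 6 had an unadjusted p under 0.05 (limma), against 2.75% of all kept probes that were lower at that p. Hadh differed by -0.15 ± 0.05 (limma, p = 0.00829, adjusted p = 0.82), Acaa2 by -0.10 ± 0.04, Decr1 by -0.13 ± 0.06 and Etfdh by -0.11 ± 0.05. Among 20 other known PPARα targets, 13 were lower (12 with arrays centred on their medians) and 7 higher, with a median of -0.07. They included Aldh3a2 (-0.17 ± 0.08), Vnn1 (-0.27 ± 0.14) and, in the other direction, Acsl4 (0.15 ± 0.08). Ppara itself averaged -0.16 ± 0.28 in HF-Q and 0.07 ± 0.23 in HF, a difference of -0.23 ± 0.10 (limma, p = 0.0368, adjusted p = 0.861). Of the list of PPARα and its partners, 8 of 10 were lower (4 with arrays centred on their medians), with a median of -0.02, and the genes next to Ppara by p were Ppargc1a (-0.08 ± 0.10), Ep300 (-0.03 ± 0.08) and Pparg (-0.04 ± 0.11).

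**Figure D3:**
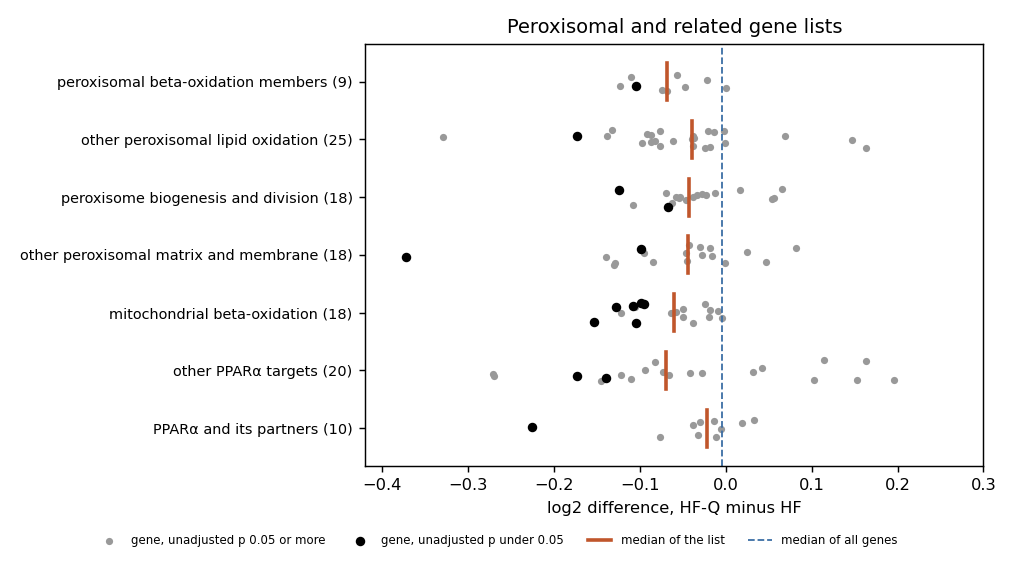
Difference in log2 ratio, HF-Q minus HF (horizontal axis), of each gene in the members' list and 6 related lists, with the number of measured genes in brackets. Black points have an unadjusted p under 0.05, orange bars are list medians and the dashed line is the median of all genes. List medians lie between -0.07 and -0.02, and 0 genes passed at an adjusted p of 0.05.

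How the genes moved with each other from liver to liver was the second comparison. Over 36 pairs the median Pearson r was 0.317, from -0.321 (Crot and Decr2) to 0.761, and 30 pairs were positive. Of the 36, 4 pairs passed at an adjusted p of 0.05 for r (permutation test with 100000 resamples, two-sided, Benjamini-Hochberg over the 36 pairs), and 2 of them passed for Spearman's rho as well. The pairs that passed joined genes of different steps of the pathway, as most of the 36 pairs do. Where these partners rank among all named genes is given further on. With arrays centred on their medians all 36 pairs passed. How many pairs of other genes would pass was not counted in either setting, so these counts are not read as particular to the pathway. All livers share the pool and a slide with other livers, so values within groups and slides stand beside the r of each pair that passed.

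Hsd17b4 and Scp2, which act in succession on branched-chain and bile acid substrates, had the highest r of 0.761 over 20 livers (rho 0.835, adjusted permutation p = 0.00306 and 0.00036). The value was 0.734 within HF-Q, 0.725 within HF, and 0.888, 0.822 and 0.76 within slides 1, 2 and 3. It stayed at 0.754 without HF replicate 7 and HF-Q replicate 5, and at 0.773 with group and slide means removed. In the Cy5 channel alone, without the ratio to the pool, it was 0.376 (adjusted permutation p = 0.286), which did not pass.

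Acaa1b and Pex11a, whose promoters are printed above, followed at r = 0.74 over 21 livers (rho 0.716, adjusted permutation p = 0.00306 and 0.00972). Livers low in both were HF replicates 2 and 11 and HF-Q replicates 2 and 3, and HF replicates 5 and 7 were high in both. HF-Q replicate 8 was low in Pex11a (-0.46) with Acaa1b at -0.04. HF replicate 1 was low in Acaa1b (-0.26) with Pex11a at 0.01. The correlation was 0.87 within HF-Q and 0.703 within HF, 0.843, 0.3 and 0.926 within slides 1, 2 and 3, and 0.787 with group and slide means removed. Without HF replicates 1 and 2 it was 0.8, and in the Cy5 channel alone 0.759 (adjusted permutation p = 0.00468).

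Crot and Ehhadh had r = 0.666 over 21 livers (rho 0.579, adjusted permutation p = 0.0133 and 0.0503), with HF-Q replicate 7 the highest liver for both genes. Within HF-Q r was 0.771 and within HF 0.596, and within slides 1, 2 and 3 it was 0.518, 0.794 and 0.689. Without HF-Q replicate 7 and HF replicate 5 it dropped to 0.505, and in the Cy5 channel alone it was 0.709 (adjusted permutation p = 0.00522).

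Abcd3 and Hsd17b4 had r = 0.624 over 21 livers (rho 0.588, adjusted permutation p = 0.0239 and 0.0503), and 0.63 without the dark Abcd3 spot. This relation rested in part on HF-Q replicate 10 and HF replicate 7, without which r was 0.366. In the Cy5 channel alone, where the dark spot also enters, it was 0.302 (adjusted permutation p = 0.334). Within HF-Q it was 0.647, within HF 0.628, and within slides 1, 2 and 3 it was 0.746, 0.526 and 0.469.

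**Figure D4:**
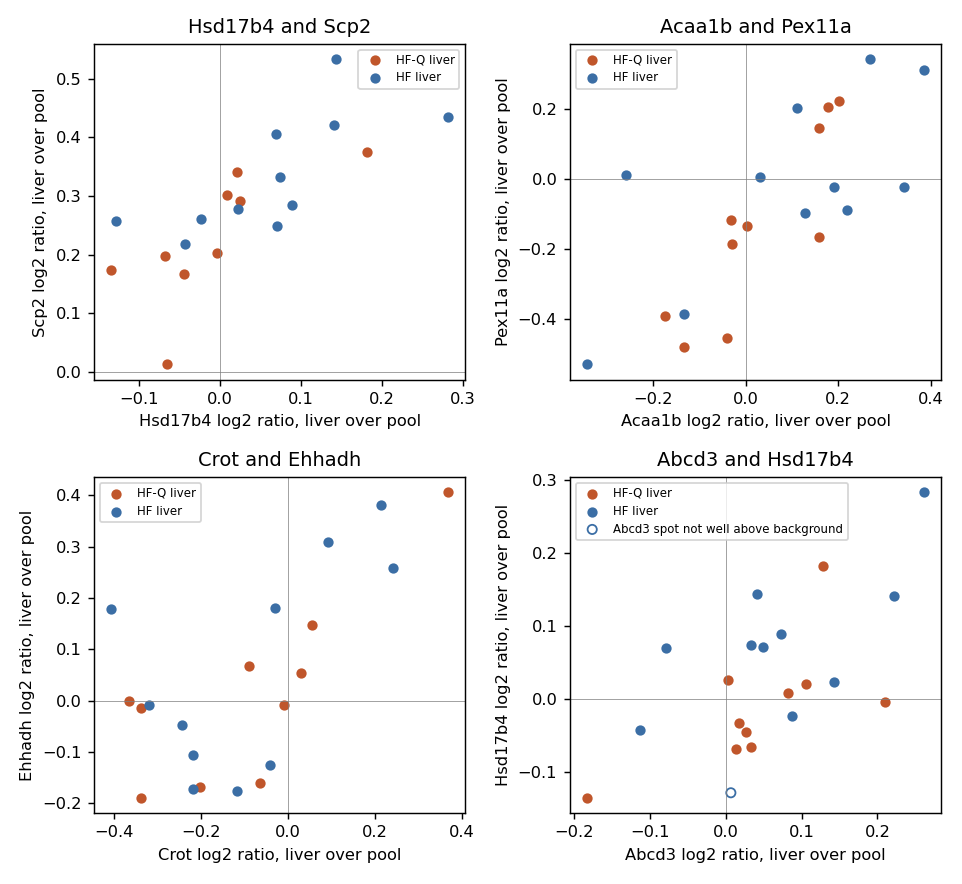
Log2 ratios to the pool of the 4 pairs of genes that passed, with 1 gene on each axis and 1 point per liver, HF-Q in orange and HF in blue. The open point is the liver with the dark Abcd3 spot, and livers of both groups lie along the length of each panel.

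The neighbouring thiolase genes Acaa1a and Acaa1b, which lie close together on chromosome 9, did not pass at r = 0.322 (rho 0.235, adjusted permutation p = 0.298 and 0.479). Decr2 stood apart from Crot, Ehhadh and Acaa1b, with r of -0.321, -0.193 and -0.0953, none of which passed.

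**Figure D5:**
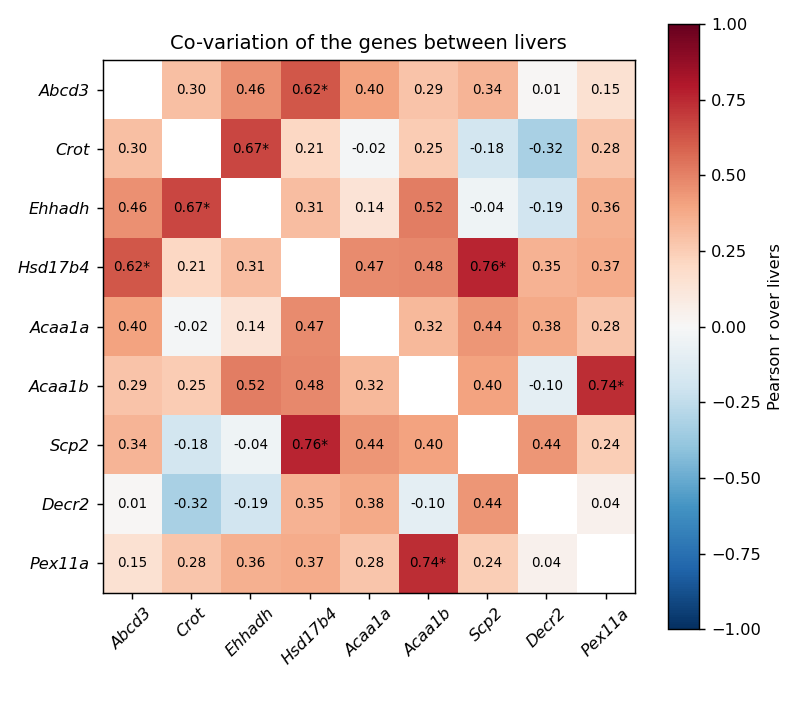
Pearson r between livers for the 36 pairs of genes (colour scale from -1 to 1, each value printed), with an asterisk at an adjusted permutation p of 0.05 or less. Asterisks stand at Hsd17b4 with Scp2 (0.76), Acaa1b with Pex11a (0.74), Crot with Ehhadh (0.67) and Abcd3 with Hsd17b4 (0.62).

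The genes most like each member over the livers were sought among 13692 named genes with a value on all arrays, by Pearson r and with no test. Across all those genes the median r with a member was between -0.0346 and 0.0422, and the 95th percentile was between 0.439 and 0.512. By rank, with the member itself at 1, Pex11a stood at 15 for Acaa1b and Acaa1b at 18 for Pex11a. Ehhadh stood at 36 for Crot and Crot at 54 for Ehhadh. Abcd3 stood at 66 for Hsd17b4 and Hsd17b4 at 190 for Abcd3, both with the dark Abcd3 spot included. For Scp2, which lacked a value on 1 array and so was not ranked itself, Hsd17b4 stood at 17. Acaa1b and Pex11a shared the same closest gene, Plin4, a lipid droplet coat protein, with r = 0.9 and 0.856. Acaa1b was followed by 4930525G20Rik (0.872) and Mfge8 (0.853), and Pex11a by Kdsr (0.821) and Slc22a29 (0.821). Plin4 itself differed by -0.33 ± 0.21 between HF-Q and HF (limma, adjusted p = 0.95). For Ehhadh the closest gene was Cyp4a14 (0.796), a fatty acid hydroxylase known as a PPARα target, followed by Retsat (0.774) and Rad51b (0.765). Cyp4a14 varied widely in both groups, at 0.00 ± 0.80 in HF-Q and -0.11 ± 0.92 in HF.

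For Acaa1a the closest genes were Tgfbi (0.849), Cpt1a (0.833) and Slc5a6 (0.821), and Cpt1a encodes the gate of mitochondrial fatty acid entry. Hsd17b4 and Scp2 shared Pcx, pyruvate carboxylase, with r = 0.798 and 0.879. Hsd17b4 was closest to Smarca4 (0.853) and also to Etfdh (0.763), and Scp2 to Ube2l3 (0.885) and Lamp1 (0.826). Abcd3, with its dark spot included, had Alkbh5 (0.829), Ppp2r5a (0.827) and Aifm1 (0.815). Crot had Bri3bp (0.817), Kdm2b (0.801) and Rtf2 (0.747), and Decr2 had Hebp1 (0.846), Pgap2 (0.845) and Mettl7a2 (0.827).

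Ppara, looked up for all members whatever its values, gave different values for different members. It had r = 0.65 with Acaa1a, 0.606 with Decr2, 0.602 with Scp2, 0.482 with Hsd17b4 and 0.355 with Abcd3. With Ehhadh (-0.124), Acaa1b (-0.0972), Pex11a (-0.0948) and Crot (-0.309) its r was below 0. With group and slide means removed, it was 0.55 with Acaa1a, 0.57 with Decr2, 0.48 with Scp2, 0.45 with Hsd17b4 and 0.39 with Abcd3. It stayed below 0 with Ehhadh, Acaa1b, Pex11a and Crot. The dark Abcd3 spot enters both Abcd3 values. These values are a description of 21 livers that share the pool, and no difference between them was tested.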

How the data were processed

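Dual-colour Agilent mouse arrays measured RNA of 21 livers. The authors deposited scanner output from Agilent Feature Extraction 10.7.3.1 (per the submitters' processing notes). Per the file headers, its mean and local background intensity columns hold raw brightness, its processed intensity columns have had background and dye corrected, and flags of 0 or 1 mark spots well above background, saturated or uneven. A deposited table of log2 values, with a median of 7.92 in every column, followed log2 Cy5 signal at r between 0.978 and 0.989 and Cy3 between 0.971 and 0.981. How it was made is not stated in these sources, so its centring stays unknown, and it served as an alternative.

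Cy5 holds the liver and Cy3 the pool, per the labels, with no dye swap. The steps were normexp background correction (offset 50) and within-array loess (limma 3.58.1, R 4.3.3) with control and flagged spots at weight 0, after which flagged spots were left out and spots of a probe averaged. A probe was kept where its Cy5 spot stood well above background in 10 or more of the 21 livers (26291 of 55681 probes). For gene counts each gene took its brightest probe (19718 genes). HF-Q was compared with HF by lmFit and eBayes over all kept probes, with Benjamini-Hochberg adjustment. Correlations used Python 3.11.15 and numpy 2.4.6. The fit was tested on simulated data. The number of arrays limits the precision.

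All members are described, and for each other pathway list the genes of lowest p (up to 4), Ppara and, for each member, the 3 genes of highest r. Some genes that these rules name are not reported here. The members, lists and rules were chosen with earlier results of these data known. Slide was tested as a batch, with 1 scan per slide. Same-numbered livers of HF-Q and HF correlated at -0.317 to 0.154 in their deviations from the group means. For livers with other numbers the range was -0.351 to 0.328. The labels do not say whether the numbers mark pairs, and these values cannot settle it. Replicate numbers were used as names, and as a block in an alternative fit only. Promoters came from the RefSeq table of GRCm38.p6 and probe positions from the array files (NCBI37).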

Additional observations from a re-analysis of the deposited data

Results flagged for a closer look

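In 3 places an HF-Q liver lay farther from the rest of its group than Dixon's 95% criterion allows, which flags about 1 group in 20 by chance, and the 11 HF livers are too many for that criterion. Hsd17b4 stood at 0.18 in HF-Q replicate 5, with the next liver at 0.03. Abcd3 stood at -0.18 in HF-Q replicate 10, with the next at 0.00. The second Scp2 probe stood at -0.45 in HF-Q replicate 7, with the next at -0.13 among 8 livers. HF-Q replicate 7 was also the lowest of its group by the brighter Scp2 probe (0.01).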

How the results depend on the processing

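The members' fold changes passed no threshold under any alternative or with any 1 array left out, and the number of probes called on the whole array was 0, except 1 with array weights and 1 without HF-Q replicate 10. Acaa1a (-0.226 to -0.048) and Decr2 (-0.0906 to -0.00979) kept their direction under all 21 alternatives.

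Values that turned direction were, with median centring, Ehhadh 0.0103, Acaa1b 0.0148 and Abcd3 0.111. With the scanner software's processed signals they were Abcd3 0.000289 and Crot -0.0126, in the Cy5 channel alone Abcd3 0.829 and Crot -0.0253, and in the deposited table Abcd3 0.138. The dark Abcd3 spot enters each of these Abcd3 values. On slide 1 Crot was -0.0137. On slide 2 Acaa1b was 0.0602, Hsd17b4 0.0884, Abcd3 0.0635, Pex11a 0.0205, Scp2 0.087 and its second probe 0.127. On slide 3 Ehhadh was 0.169 and Abcd3 0.0157. With the replicate block Crot was -0.0149, while the median of the members was -0.0836 with 9 of 9 lower, and the block changed no call. Leaving out 1 array at a time gave Crot -0.0516 to 0.0337 and Abcd3 -0.0408 to 0.00298, the last without HF-Q replicate 10. It also moved Ehhadh (-0.0914 without HF-Q replicate 7 to -0.0159 without HF replicate 6), Acaa1b (-0.0267 without HF replicate 7 to -0.0998 without HF replicate 2), Pex11a (-0.0724 without HF-Q replicate 2 to -0.161 without HF replicate 2) and the second Scp2 probe (-0.0604 without HF-Q replicate 7 to -0.137 without HF-Q replicate 5), none of which turned direction. The cause was not tested.

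The number of genes lower in HF-Q became, with median centring, 5 of 9 members, 12 in other lipid oxidation, 7 in matrix and membrane, 10 in mitochondrial beta-oxidation and 4 in PPARα and its partners, with list medians of -0.00157 for biogenesis and 0.0142 for matrix and membrane. In PPARα and its partners it was 4 with array weights, 4 without HF-Q replicate 10 (4 to 9 over all single arrays left out) and 1 on slide 2, where its median was 0.104 and that of the members 0.0539 with 3 of 9 lower. Other lipid oxidation had 11 lower on slide 3. All 36 pairs of members passed in co-variation with median centring, against 4 or 5 under the other alternatives, and pairs of other genes were not counted. The call of Abcd3 with Hsd17b4 was lost in the Cy5 channel alone (r = 0.302) and in the deposited table (0.435), and that of Hsd17b4 with Scp2 in the Cy5 channel alone (0.376). Aquantile normalization changes no ratio by construction.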
